A study of Mus musculus with 18 samples.

Results

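The proteasome genes of mouse bone marrow-derived macrophages were followed through 3 cytokine conditions. They were taken as the protein-coding genes whose symbol is Psma, Psmb, Psmc, Psmd, Psme, Psmf or Psmg directly followed by a digit, which gave 50 of the 48794 genes in the count table. A further 4 rows with such symbols are pseudogenes and were left out; they held 15 reads in all libraries together. Psmc3ip fits the naming rule but codes for a recombination factor and not for a proteasome subunit, and Psma8 and Psmb11 code for subunits of germ cells and thymus. The 5 members known as interferon-inducible (Psmb8, Psmb9, Psmb10, Psme1 and Psme2) were set against the other 45.

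Marrow cells of male C57BL/6 mice were grown into macrophages over 7 days with 50 ng/ml of M-CSF, their lineage growth factor, followed by 24 h of treatment in medium with 10 ng/ml of it. Control cells had M-CSF only. The IL4_IL13 group had IL-4 plus IL-13, which drive type 2 responses, and the IL4_IL13_TNFa group had this pair plus TNFa, an inflammatory cytokine, every cytokine at 10 ng/ml. Poly(A) RNA was sequenced from 6 libraries per group, numbered 1 to 6. Whether libraries within a group derive from different mice or dishes is not labelled; p-values therefore reflect library-to-library spread that could be technical. No group received TNFa alone.

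The proteasome is the barrel-shaped protease that degrades ubiquitin-tagged proteins. Its 20S core is built of outer alpha rings and inner beta rings, with the protease sites on 3 beta subunits (Psmb5, Psmb6 and Psmb7), and the 19S cap recognises and unfolds the substrate. Immune cells can build the immunoproteasome, in which Psmb8 (LMP7) replaces Psmb5, Psmb9 (LMP2) replaces Psmb6 and Psmb10 (MECL-1) replaces Psmb7. The PA28 activator, made of Psme1 and Psme2, can take the place of the cap. Both changes are known for altering the peptides offered to class I antigen presentation, and they are classically induced by interferons and, more weakly, by TNF.

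Depth ranged from 14793404 to 20056125 reads per library. Levels are CPM, read counts per unit of library size after TMM scaling, and are given as lowest, median and highest of 6 libraries unless said otherwise; means carry the SD (n = 6). Changes are log2 fold changes, with an approximate standard error, from edgeR's quasi-likelihood test adjusted over 13177 genes, and a gene counts as changed at an adjusted p under 0.05. Summed macrophage markers (8 genes, none at 0) were 13898 to 24849 CPM among Control libraries, 7958 to 9690 among IL4_IL13 and 8215 to 9017 among IL4_IL13_TNFa. Summed dendritic cell markers (7 genes, with Xcr1 at 0 in IL4_IL13_TNFa) were 1.26 to 3.97, 2.77 to 6.67 and 34.9 to 37.9 CPM in the same order, and stromal markers (8 genes) 20.2 to 643, 56.5 to 569 and 59.3 to 366. The sums hide changes in single genes. With added TNFa, 5 of the 8 macrophage markers were lower and 1 higher (from -4.43 to 0.45), against 29.3% and 30.3% of all genes. Only 2 dendritic markers were tested, 1 higher and 1 lower in IL4_IL13 than in Control (1.95 and -0.65). They also went opposite ways with added TNFa (3.62 and -0.89). Neutrophil, T and NK cell and B cell marker sums stayed at or below 3.20 CPM in every library. The part of these other cells in the results below was not tested; in bulk RNA, fewer cells of a type and less RNA per cell cannot be told apart.

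The DNA just before 4 of the members is shown because the results turn on them. RefSeq windows on GRCm38.p6, from 250 bases before to 50 after the start of transcription, were found for 42 of the 50 members. The starts named with these windows are RefSeq starts. Shown 5′ to 3′ on the strand of the gene are the 250 bases before the start of Psmb8 (chr17:34197945-34198194, plus strand), of its constitutive counterpart Psmb5 (chr14:54617996-54618245, minus strand), of Psmb9, whose start lies back to back with that of the peptide transporter gene Tap1 (chr17:34187331-34187580, minus strand), and of Psmd10, the member with the largest rise under TNFa (chrX:140956712-140956961, minus strand). Capitals mark matches to any of 4 motifs searched on both strands.
Psmb8: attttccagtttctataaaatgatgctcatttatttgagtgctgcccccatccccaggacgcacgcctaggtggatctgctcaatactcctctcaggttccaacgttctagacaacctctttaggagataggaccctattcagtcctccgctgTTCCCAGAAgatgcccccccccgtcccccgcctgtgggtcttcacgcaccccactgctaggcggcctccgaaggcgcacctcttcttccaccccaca
Psmb5: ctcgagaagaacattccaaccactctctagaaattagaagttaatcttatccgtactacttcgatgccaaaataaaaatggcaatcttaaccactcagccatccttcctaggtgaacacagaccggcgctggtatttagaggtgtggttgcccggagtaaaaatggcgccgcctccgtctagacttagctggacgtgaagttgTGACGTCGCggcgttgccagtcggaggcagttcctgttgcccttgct
Psmb9: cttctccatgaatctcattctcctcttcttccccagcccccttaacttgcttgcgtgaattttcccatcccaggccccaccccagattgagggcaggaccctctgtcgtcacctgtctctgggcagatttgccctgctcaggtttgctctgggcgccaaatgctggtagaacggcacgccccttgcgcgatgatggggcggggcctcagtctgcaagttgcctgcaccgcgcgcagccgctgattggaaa
Psmd10: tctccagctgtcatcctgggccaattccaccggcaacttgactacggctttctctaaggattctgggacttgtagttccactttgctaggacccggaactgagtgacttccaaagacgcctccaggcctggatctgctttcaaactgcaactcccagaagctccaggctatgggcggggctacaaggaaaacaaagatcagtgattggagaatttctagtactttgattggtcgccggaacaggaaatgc
The capitals in Psmb8, at bases -97 to -89, fit the GAS element bound by STAT factors (TTCNNNGAA), and those in Psmb5, at -47 to -39, fit the core of the antioxidant response element (TGACNNNGC), the site class bound by Nfe2l1 and Nfe2l2 with small Maf partners. Neither Psmb9 nor Psmd10 has a match to any of the 4 in this window. Among the 5 inducible members, 1 held a GAS match (Psmb8) and 1 an interferon regulatory factor match (AAANNGAAA, in Psme1, after the start); none held the antioxidant core or an NF-kB site. Of the 37 other members with a window, 6 held the antioxidant core (Psmb5, Psmb6, Psmc6, Psmd12, Psmd9 and Psme4), which is 16.2% against 14.0% of the 27025 genes with a window. Matches to the interferon regulatory factor letters stood in 5 of those 37 (12.1% of all genes with a window), to GAS in 2 (9.55%) and to the NF-kB site in 1 (5.14%). A match is a run of letters and no evidence of binding. The RefSeq starts of Psmb9 and Tap1 lie 226 bases apart on chromosome 17, at 34187330 and 34187556 on opposite strands. In the GENCODE annotation matched to the counts, Psmb8 begins further upstream, at 34197721, and so does Psmb9, at 34187764 on the minus strand. The windows shown for Psmb8 and Psmb9 thus lie inside those gene spans, and exons of Psmb9 and Tap1 overlap there. What is said of motifs holds for the RefSeq starts only.

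Most members rose with each added stimulus, and TNFa raised all 5 inducible members. Of the 49 members tested, 39 were higher and 1 lower in IL4_IL13 than in Control, against 29.3% higher and 29.7% lower among all genes tested. The median log2 fold change of the members was 0.34, and -0.0024 over all genes. When TNFa was added to IL-4 and IL-13, 39 members were higher and 2 lower, against 30.3% and 29.3% of all genes, with a member median of 0.34 and a median of 0.0030 over all genes. Against Control, the 3 cytokines together raised 46 and lowered 1, against 36.4% and 37.3% of all genes, with a member median of 0.71 against -0.02. The comparisons share libraries, so their counts are not independent of each other. The remaining member, thymic Psmb11, had 26 reads over all libraries and was not tested.

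The size of the changes and the number of calls depend on how libraries are scaled. With a change over 1.5-fold, 6, 11 and 35 of the 49 members were called in IL4_IL13 against Control, under added TNFa, and under the 3 cytokines against Control, against 25.7%, 29.7% and 44.6% of all genes tested. Scaling by library totals alone shifted the median of all genes by -0.04, -0.21 and -0.25 in these comparisons. With that scaling, 18 and not 39 members were higher under added TNFa, all 5 inducible members among them. The balance of all genes moved likewise, from 3999 higher and 3857 lower to 2313 and 6089, and for the 3 cytokines against Control from 4803 and 4919 to 3285 and 6773.

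**Figure D1:**
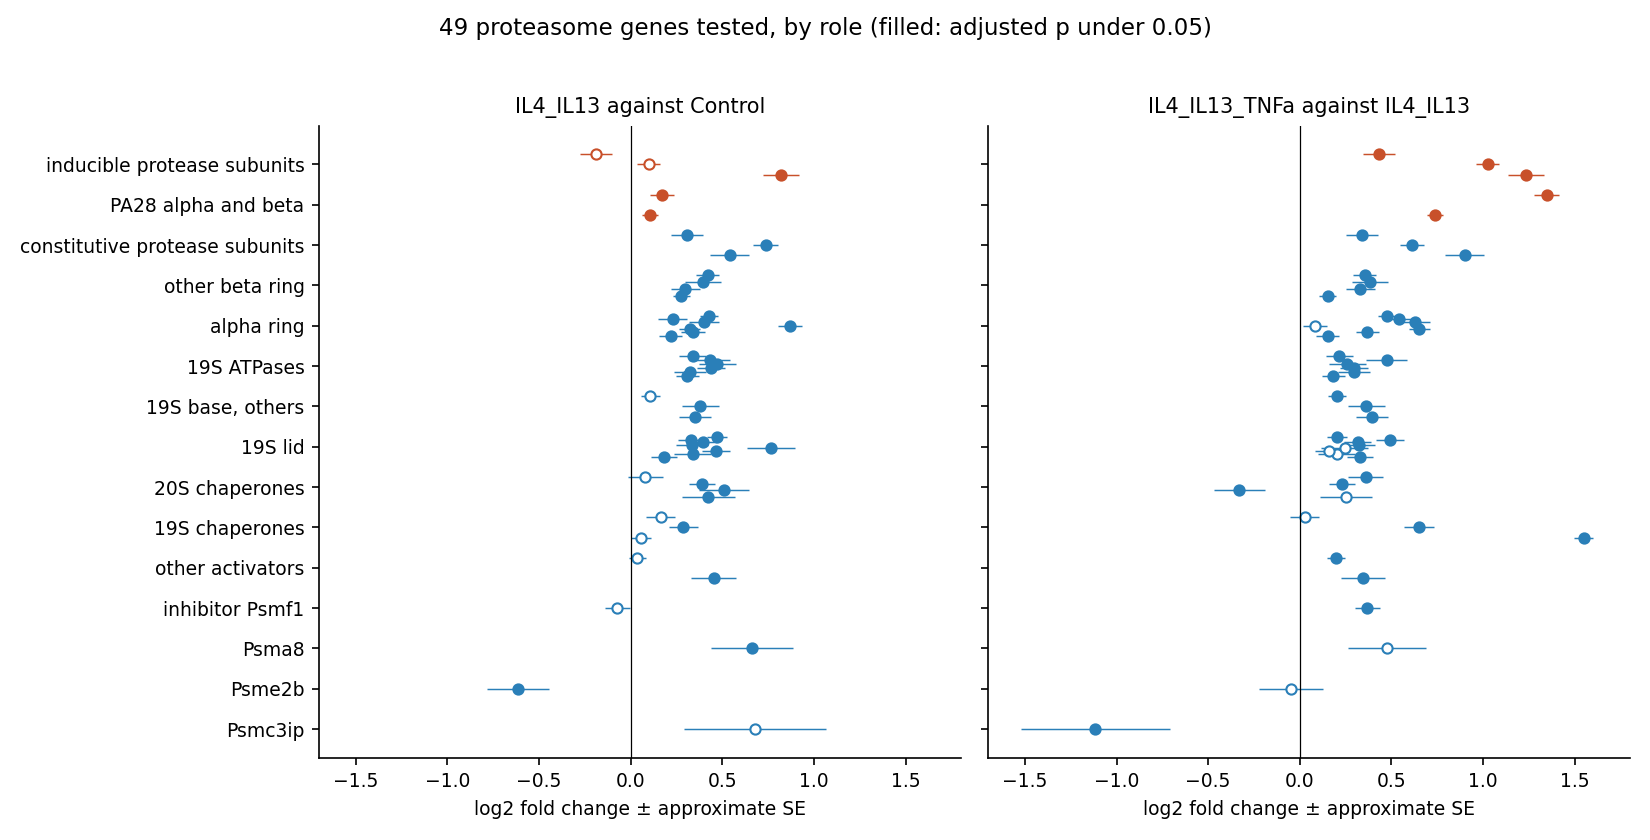
Log2 fold change (± approximate standard error) of each of the 49 members tested, by role, in IL4_IL13 against Control (left) and IL4_IL13_TNFa against IL4_IL13 (right); filled points have an adjusted p under 0.05 and the 5 inducible members are in orange. On the left most constitutive roles lie right of 0 while Psmb8 and Psmb9 do not pass the test, and on the right the inducible members lie between 0.43 and 1.35, with the 19S chaperone Psmd10 beyond them at 1.55.

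The inducible protease subunits split under IL-4 and IL-13, where Psmb10 rose and Psmb8 and Psmb9 did not pass the test; all 3 rose with TNFa. Psmb10 (chr8:105935735-105938444), which carries the trypsin-like site of the immunoproteasome, stood at 43.2, 57.7 and 60.8 CPM in Control, 80.4, 98.2 and 119 in IL4_IL13 and 215, 232 and 251 in IL4_IL13_TNFa. No library of one group reached into another. The steps were 0.82 ± 0.10, adjusted p = 1.1e-06 for IL4_IL13 against Control and 1.24 ± 0.10, adjusted p = 2.55e-09 for added TNFa, so that the 3 cytokines together raised it 4.16-fold (log2 fold change 2.06 ± 0.10).

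Psmb8 (chr17:34197721-34201454), the chymotrypsin-like subunit, passed the test only in its second step. It lay at 77.5, 81.6 and 96.01 CPM in Control and 83.8, 87.98 and 104 in IL4_IL13, ranges that overlap (0.10 ± 0.06, adjusted p = 0.187), and at 174, 180.5 and 208 with TNFa, above every other library (1.03 ± 0.06, adjusted p = 7.79e-11). Leaving out Control replicate 1, which stands apart from the other controls, gave a called first step of 0.14 with an adjusted p of 0.037. Psmb9 (chr17:34181987-34187764), which replaces the caspase-like subunit Psmb6, had the smallest rise of the 3 under TNFa by fitted value. Its levels were 29.5, 35.4 and 43.3 CPM in Control, 28.1, 31.6 and 35.2 in IL4_IL13 and 37.9, 40.2 and 49.4 with TNFa. The IL4_IL13 value was lower than that of the control with the same number in 6 of 6 pairs without passing the test (-0.19 ± 0.09, adjusted p = 0.0707); it was called once same-numbered libraries were fitted as blocks (-0.18, adjusted p = 0.019) and without Control replicate 1 (-0.24, adjusted p = 0.012). Adding TNFa raised it (0.43 ± 0.09, adjusted p = 0.000314), with no overlap between those groups. Against Control the call for Psmb9 (0.24 ± 0.09, adjusted p = 0.018) depends on the processing, since library totals gave -0.01 and a stricter filter on low counts 0.19 (adjusted p = 0.0696). Exons of Psmb9 and Tap1 share 212 bases on opposite strands (5.79% of the Psmb9 exons), and Tap1 moved in the same directions in the 2 steps (fitted changes -0.32 and 0.54, each called), while its call against Control (0.21, adjusted p = 0.0421) held in 11 of 18 fits that left out 1 library; the strand setting of the read counting is not given, and the part of shared reads was not tested.

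**Figure D2:**
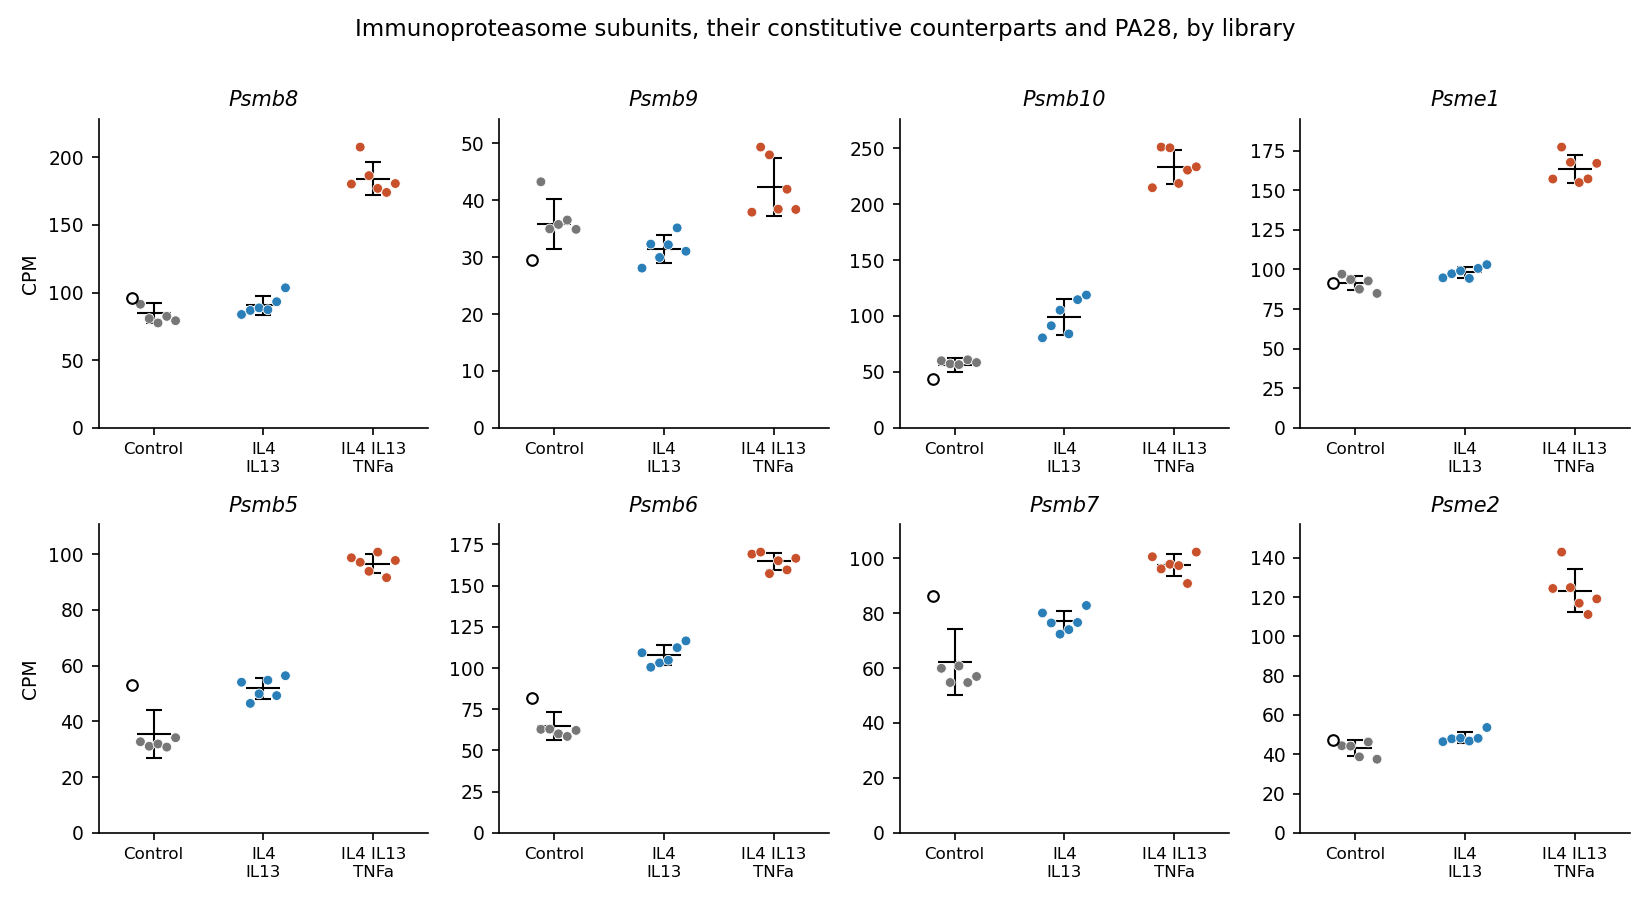
Levels in CPM of the immunoproteasome subunits Psmb8, Psmb9 and Psmb10, their constitutive counterparts Psmb5, Psmb6 and Psmb7 below them, and Psme1 and Psme2, in the 6 libraries of each group (points; bar and whiskers, mean and SD; open circle, Control replicate 1). Psmb10, Psmb5 and Psmb6 step up with each stimulus, while Psmb8, Psme1 and Psme2 are highest in the TNFa group (Psme2 from a mean of 48.5 to 123 CPM).

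The PA28 genes rose with TNFa, by larger fitted values than in the first step. Psme2 (chr14:55587441-55591113), the beta subunit, lay at 37.5, 44.2 and 47.5 CPM in Control, 46.4, 47.98 and 53.6 in IL4_IL13 and 111, 122 and 143 in IL4_IL13_TNFa, and TNFa raised it 2.54-fold (1.35 ± 0.07, adjusted p = 3.66e-12). Its partner Psme1 (chr14:55578123-55581529), the alpha subunit and a near neighbour on chromosome 14, lay at 84.9, 92.1 and 97.1, 94.4, 98.2 and 103 and 155, 162 and 177 CPM in the same order (0.74 ± 0.04, adjusted p = 3.75e-11 for added TNFa). In both genes every TNFa library was above every other library, and the first 2 groups overlapped. The first step was called for both, at 0.11 ± 0.04 for Psme1 and 0.17 ± 0.07 for Psme2, but with a thin margin. Leaving out any of 6 single libraries ended the call for Psme1 and any of 3 ended it for Psme2 (Control replicate 4 or 6 or IL4_IL13 replicate 6, each of which ended both), as did library totals and a stricter filter on low counts. Reads of Psme2 may be split with its near-identical relative Psme2b, which fell in IL4_IL13 (7.53, 13.7 and 15.4 CPM in Control against 4.96, 8.44 and 10.8, -0.61 ± 0.17, adjusted p = 0.00476) and did not differ past the threshold with TNFa (-0.05 ± 0.17, adjusted p = 0.825). Psme2b also overlaps 9930111J21Rik1 on the same strand over 41 bases, and that gene moved the same way in IL4_IL13 against Control (-0.49 ± 0.20, adjusted p = 0.0395).

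The constitutive protease subunits, which the immunoproteasome forms replace, were not lower in any comparison; all 3 rose at each step. Psmb5 (chr14:54614119-54618022) went from 30.8, 32.3 and 53.03 CPM in Control to 46.4, 51.9 and 56.4 in IL4_IL13 and 91.6, 97.4 and 101 with TNFa. Its rise under TNFa (0.90 ± 0.11, adjusted p = 5.58e-07) was larger than that of Psmb9 by fitted value. Psmb6 (chr11:70525367-70527858) stood at 58.5, 62.5 and 81.6, 100.5, 107 and 116 and 157, 166 and 170.4 CPM, without overlap between groups (0.74 ± 0.07, adjusted p = 2.81e-08 and 0.61 ± 0.07, adjusted p = 1.89e-07 for the 2 steps). Psmb7 (chr2:38588036-38644087) rose least of the 3, from 54.7, 58.4 and 86.3 to 72.3, 76.5 and 82.8 and 90.8, 97.6 and 102 CPM (0.31 ± 0.09, adjusted p = 0.00581 and 0.34 ± 0.09, adjusted p = 0.00248), and the second step was not called with library totals (0.13, adjusted p = 0.19). Psmb7 shares 405 exon bases with Nek6 on the opposite strand, and Nek6 rose from a mean of 55.2 to 152 CPM in IL4_IL13. The highest control in each of these 3 genes was Control replicate 1, at 53.03, 81.6 and 86.3 CPM.

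Setting each inducible subunit against the one it replaces, within a library, gives a measure that needs no scaling between libraries. Counts of the pair were taken as a log2 ratio per library and compared by a two-sided exact permutation test, adjusted over 9 tests (3 pairs, 3 comparisons); the smallest p that 6 libraries against 6 allow is 0.00216. The pairs went different ways. The log2 ratio of Psmb10 to Psmb7 lay between -0.999 and 0.15 among controls, between 0.01 and 0.58 in IL4_IL13, and between 1.09 and 1.39 with TNFa. It rose by 0.49 in the first step (exact p = 0.0108, adjusted 0.0162, higher in 6 of 6 pairs of like number) and by 0.91 in the second (exact p = 0.00216, adjusted 0.00487), where the groups did not overlap.

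Psmb9 lost ground to Psmb6. Their log2 ratio spanned -1.47 to -0.54 among controls, -1.96 to -1.64 in IL4_IL13 and -2.16 to -1.71 with TNFa. The first step was -0.93 (exact p = 0.00216, adjusted 0.00487), with no overlap between groups, and the ratio was no higher with TNFa: the second step was -0.19 (exact p = 0.0671, adjusted 0.0755), and it was called, at -0.24, without IL4_IL13_TNFa replicate 3 (adjusted p = 0.0317). Psmb8 against Psmb5 fell by 0.47 in the first step (exact p = 0.00866, adjusted 0.0156). Its second step, 0.12, did not pass the unpaired test (exact p = 0.104, adjusted 0.104), although it was higher in 6 of 6 pairs; the exact sign-flip test on pairs of like number gave an adjusted p of 0.0402. Over the 3 cytokines against Control the Psmb8 ratio was lower by 0.34 (adjusted p = 0.0195), which the paired test did not call (adjusted p = 0.0625). The Psmb9 ratio fell by 1.115 and the Psmb10 ratio rose by 1.40 over the same span (each exact p = 0.00216, adjusted 0.00487). By this measure the rise of Psmb8 under TNFa went with a rise of Psmb5 of nearly the same size, whereas Psmb10 outran Psmb7.

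**Figure D3:**
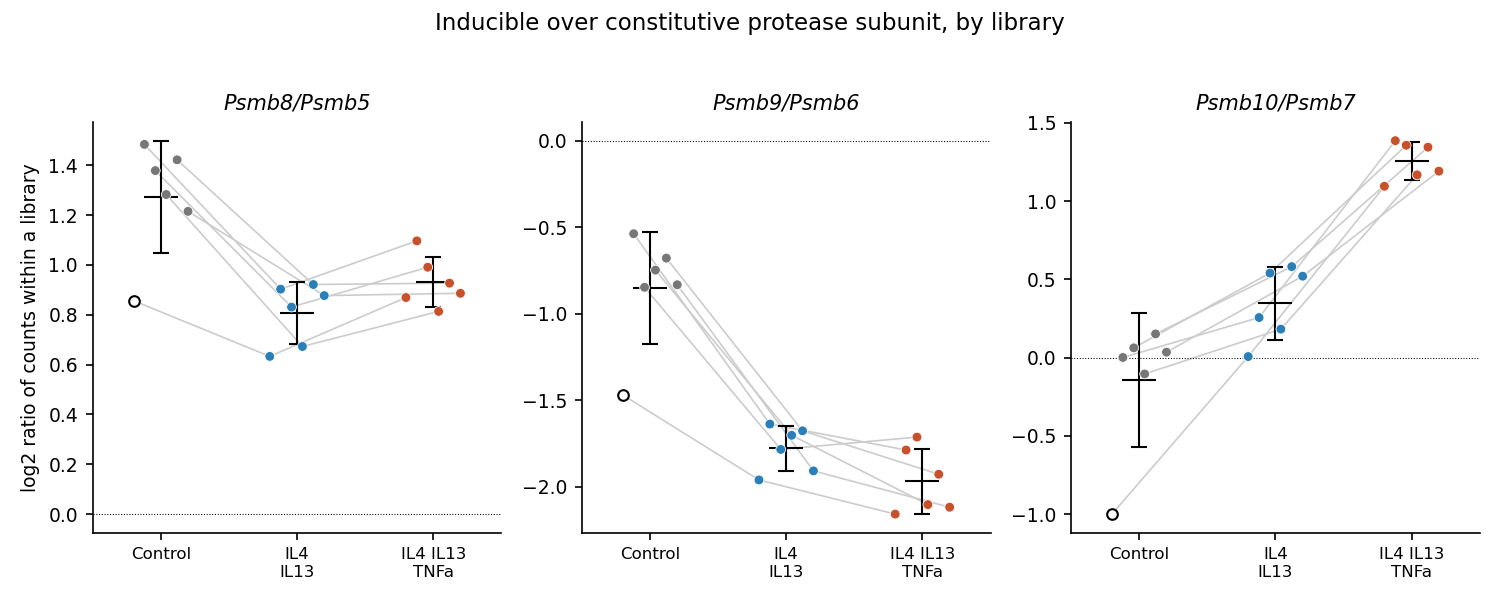
Log2 ratio of the counts of each inducible protease subunit to its constitutive counterpart within a library (points; bar and whiskers, mean and SD of 6; grey lines join libraries of the same number; open circle, Control replicate 1; each panel has its own axis). Psmb8/Psmb5 and Psmb9/Psmb6 step down in IL4_IL13, by 0.47 and 0.93, whereas Psmb10/Psmb7 steps up by 0.49 and again by 0.91 with TNFa.

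Per transcript length, and as a description with no test, the mean share of the 3 inducible subunits was lowest in IL4_IL13 and highest with TNFa. As a percentage of the TPM of all 6 protease subunits (a measure per transcript length, here of the principal transcript) they held 41.3 ± 4.46 in Control, 37.3 ± 2.33 in IL4_IL13 and 44.7 ± 1.88 in IL4_IL13_TNFa (SD, n = 6). In Control replicate 1 the share was 32.5%, against 41.8% to 44.5% in the other 5 controls. The library numbered 1 also had the lowest share in IL4_IL13 (33.4%) and in IL4_IL13_TNFa (42.6%). Within pairs, Psmb8 took 57.1%, 49.1% and 51.3% of its pair in the 3 groups, Psmb9 24.8%, 14.7% and 13.2%, and Psmb10 44.7%, 53.0% and 67.9%. Summed over all 50 members, the level rose from 5473 ± 672 TPM through 6642 ± 287 to 7629 ± 145. Among members ranked by TPM, Psmb10 moved from place 22 in Control to 13 and then to 2, behind Psmb6 at place 1, whereas Psmb9 went from 31 to 36 and 37.

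The rest of the core rose together in the first step. All 7 alpha ring genes and all 4 beta ring genes without a protease site were higher in IL4_IL13, with medians of 0.34 and 0.35. Of all genes tested, 29.3% were higher there. The largest of these rises was that of Psma4, a subunit of the outer ring, from 52.3, 56.9 and 71.3 to 96.8, 106 and 123 CPM (0.87 ± 0.07, adjusted p = 2.86e-09), without overlap. With TNFa it was not called (109, 112 and 119 CPM, 0.08 ± 0.07, adjusted p = 0.296) while the other 6 alpha ring genes rose, led by Psma3 (26.3, 26.95 and 29.3 against 39.3, 43.2 and 45.5 CPM, 0.65 ± 0.06, adjusted p = 1.13e-08) and Psma5 (0.63). The smallest of the 6, Psma1 (0.15, adjusted p = 0.0444), lost its call in 14 of 18 fits that left out 1 library and with no filter, and became -0.05 with library totals. Among the other beta genes, Psmb4 rose by 0.42 and 0.35 in the 2 steps, and Psmb3 by 0.40 and 0.38, the latter not called with library totals (0.18, adjusted p = 0.12). Psmb4 was the only one of the 4 beta ring genes without a protease site whose second step stayed called with library totals.

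The 19S cap rose with the core. All 6 ATPases, the ring that unfolds the substrate, were higher at each step, with medians of 0.38 and 0.28. Of all genes tested, 29.3% and 30.3% were higher at these steps. Psmc5 rose most with TNFa, from 72.6, 82.7 and 88.4 to 107, 110.3 and 127 CPM (0.48 ± 0.11, adjusted p = 0.00119), and Psmc4 rose most in the first step, from 55.6, 58.9 and 92.7 to 80.7, 89.2 and 99.1 CPM (0.47 ± 0.10, adjusted p = 0.000587). The call of Psmc4 with TNFa (0.26, adjusted p = 0.032) ended in 5 of 18 fits that left out 1 library. It also ended with no filter (adjusted p = 0.0866). The large scaffold subunit Psmd2, the most abundant member in CPM, stood at 201, 208 and 335 CPM in Control, 276, 296 and 341 in IL4_IL13 and 371, 383 and 402 with TNFa; its steps were 0.38 and 0.36, and those of Psmd1 0.35 and 0.39. Psmd4, another cap subunit, was not called in the first step (0.11, adjusted p = 0.0783). Its rise with TNFa (0.20, adjusted p = 0.00209) became -0.0028 with library totals. With library totals the second step was called in only 1 of the 6 ATPases (Psmc5) and in neither Psmd1 nor Psmd2.

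In the lid, 8 of 8 genes were higher in IL4_IL13 (median 0.37) and 5 of 8 with TNFa (median 0.28), against 29.3% and 30.3% of all genes tested. With library totals only Psmd7 of those 5 stayed called, and the first-step call of Psmd11 (0.18, adjusted p = 0.0342) ended with library totals and in 7 of 18 fits that left out 1 library. Psmd14, the enzyme that removes ubiquitin chains as the substrate enters, had the largest rise in IL4_IL13, from 33.8, 35.1 and 64.6 to 60.9, 69.6 and 78.2 CPM (0.77 ± 0.13, adjusted p = 6.93e-05). The 1 control inside the IL4_IL13 range was replicate 1. With TNFa it stood at 75.04, 80.7 and 88.2 CPM; that step missed the threshold (0.25 ± 0.13, adjusted p = 0.11) and passed it with same-numbered libraries as a block (0.26, adjusted p = 0.043) and without Control replicate 1 (0.24, adjusted p = 0.0014). Psmd7, the inactive partner of Psmd14, rose most of the lid genes with TNFa (83.8, 89.5 and 96.9 against 123, 125 and 129.5 CPM, 0.49 ± 0.08, adjusted p = 1.64e-05). Psmd12 and Psmd13 were the other lid genes gained under the block.

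The largest rise under TNFa was not in an inducible subunit but in Psmd10 (chrX:140948429-140956728), the ankyrin repeat protein gankyrin, one of the chaperones that assemble the 19S base. Its levels were 20.02, 20.7 and 23.9 CPM in Control and 20.7, 21.8 and 24.7 in IL4_IL13, which did not differ past the threshold (0.06 ± 0.05, adjusted p = 0.362), and 62.8, 65.4 and 67.1 with TNFa. Every TNFa library held over 60 CPM and no other library over 25. The rise was 2.93-fold (1.55 ± 0.05, adjusted p = 1.94e-14), above the fitted change of 96.3% of all genes tested, and leaving out any 1 library moved it only between 1.53 and 1.58. Psmd5, another base chaperone, rose at both steps, from 35.4, 42.1 and 56.4 CPM through 46.4, 53.8 and 56.7 to 80.4, 82.9 and 87.6 (0.65 ± 0.08, adjusted p = 1.03e-06 for TNFa). Psmd9, the remaining one of this set, was not called at either step (0.16 and 0.03).

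The chaperones of the 20S core were low throughout. Psmg1, Psmg2 and Psmg3 were higher in IL4_IL13 (median of the 4 genes 0.41) and Psmg4 was not called, against 29.3% higher among all genes. Under added TNFa 2 were higher and 1 lower (median 0.24), against 30.3% and 29.3% of all genes, and Psmg1 was not called (0.25, adjusted p = 0.131). With TNFa, Psmg4 rose (6.29, 7.76 and 8.65 against 9.45, 9.79 and 10.6 CPM, 0.36 ± 0.10, adjusted p = 0.00315), as did Psmg3, neither of them called with library totals (Psmg4 0.15, adjusted p = 0.161); Psmg3 was also lost with no filter. Psmg2 fell from 13.6, 16.8 and 19.4 to 12.4, 13.4 and 14.5 CPM (-0.33 ± 0.14, adjusted p = 0.0465). That fall was lower in 6 of 6 pairs of like number, but its ranges overlapped and its call held in only 5 of 18 fits that left out 1 library.

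**Figure D4:**
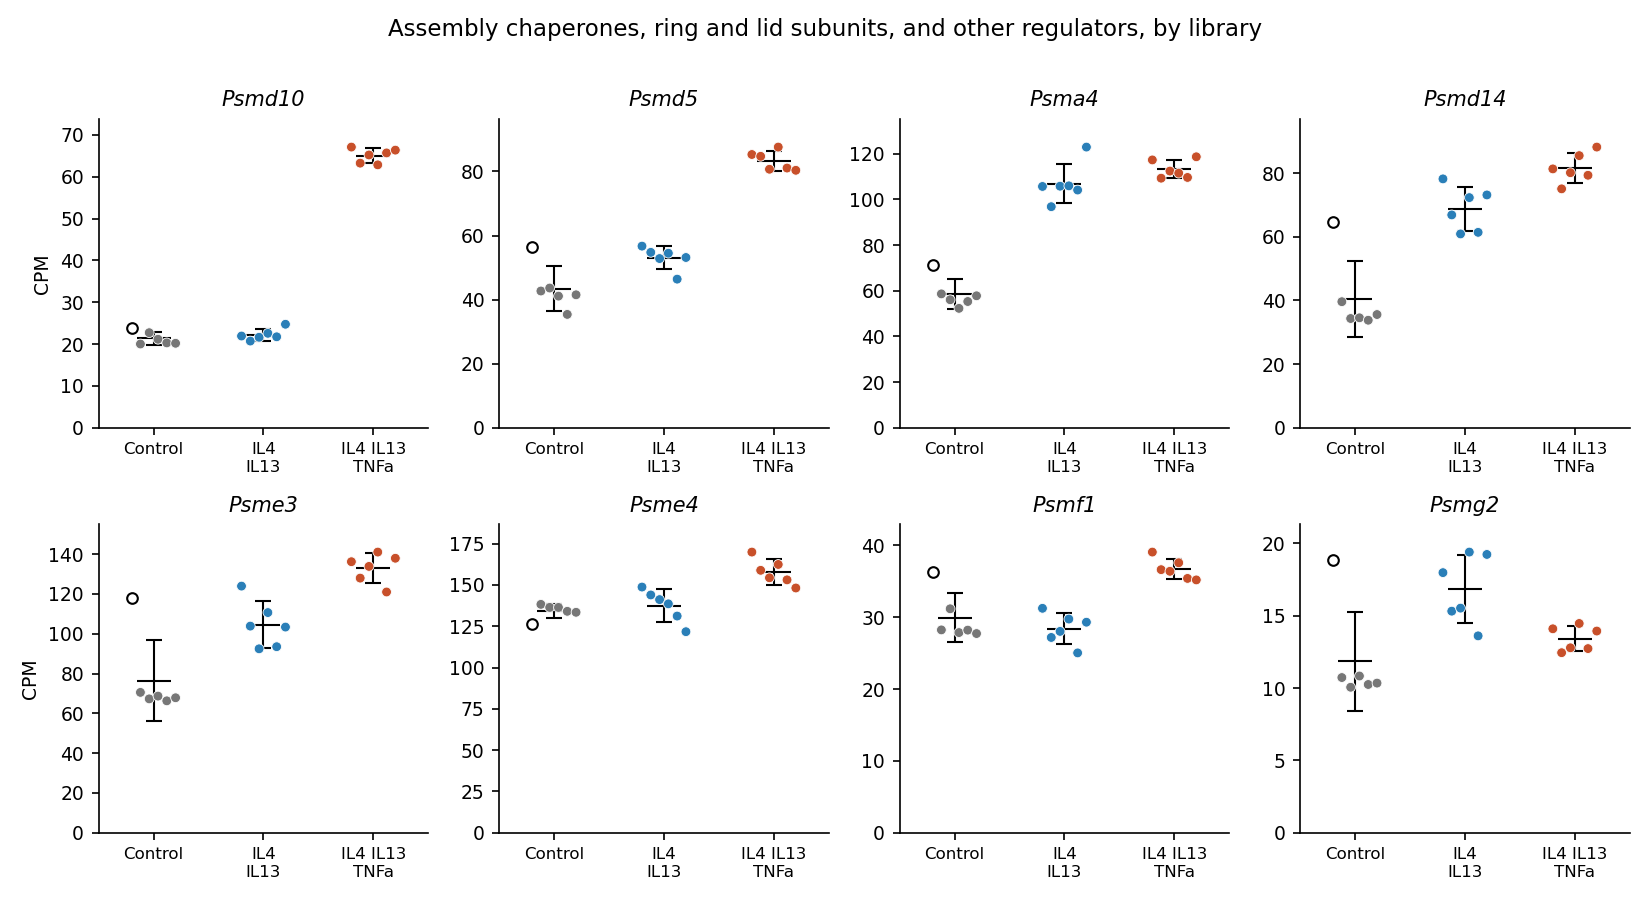
Levels in CPM of assembly chaperones (Psmd10, Psmd5, Psmg2), a ring subunit (Psma4), a lid subunit (Psmd14), activators (Psme3, Psme4) and the inhibitor Psmf1 in the 6 libraries of each group (points; bar and whiskers, mean and SD; open circle, Control replicate 1). Psmd10 has overlapping ranges in the first 2 groups and rises to a mean of 65.1 CPM with TNFa, and Control replicate 1 stands above the other controls in several panels, for example at 118 CPM for Psme3.

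Both other activators and the inhibitor were higher with TNFa, and only Psme3 was called in the first step. Psme3, the nuclear PA28 gamma, lay at 66.3, 68.3 and 118 CPM in Control, 92.4, 104 and 124 in IL4_IL13 and 121, 135 and 141 with TNFa (0.45 ± 0.12, adjusted p = 0.0038 and 0.35 ± 0.12, adjusted p = 0.019); the second step was not called with library totals (0.14, adjusted p = 0.319) or with no filter (adjusted p = 0.08). The large activator Psme4 (PA200) went from 126, 135 and 138 and 122, 139.8 and 149 to 148, 157 and 169.9 CPM; its rise with TNFa (0.20 ± 0.05, adjusted p = 0.00152) became -0.01 with library totals. Psmf1, which codes for the proteasome inhibitor PI31, did not change past the threshold in the first step (-0.07 ± 0.07, adjusted p = 0.362) and rose with TNFa from 25.04, 28.7 and 31.3 to 35.2, 36.5 and 39.1 CPM (0.37 ± 0.07, adjusted p = 0.000124), all TNFa libraries being above the IL4_IL13 range. Germ cell Psma8 was near the lower limit of the test, at 0.551, 1.03 and 1.17 CPM in Control and 1.56, 2.17 and 2.71 with TNFa (1.13 ± 0.22, adjusted p = 0.000138 against Control). Psmc3ip, the recombination factor, lay at 1.07, 1.502 and 7.78, 3.27, 3.79 and 5.67 and 1.197, 1.899 and 2.63 CPM and fell with TNFa (-1.11 ± 0.41, adjusted p = 0.0247), a call that ended without IL4_IL13 replicate 1 or IL4_IL13_TNFa replicate 3.

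Control replicate 1 bears on all comparisons with Control. Since all 18 libraries were fitted together, it also enters the calls under added TNFa. It also held the lowest macrophage marker sum of the controls (13898 CPM against 20847 to 24849) and the lowest stromal sum (20.2 against 107 to 643); the part of these in its member levels was not tested. Of the 49 members tested, 42 were higher there than in the other 5 controls, 4 lower and 3 within their range, with a median log2 difference of 0.41 from their mean. The same count was not made over all genes, so whether this shift is particular to the members was not tested. The shift was uneven: among the 44 constitutive and other members 40 were above (median 0.45), and among the 5 inducible members 2 were above, 2 below and 1 within (median 0.01). Without this library no member lost its call. Psmb8, Psmb9, Psmd4, Psmd9 and Psmc3ip were gained in IL4_IL13 against Control, Psmd12, Psmd13, Psmd14 and Psmg1 under added TNFa, and Psmg2 under the 3 cytokines against Control. A fit of only the libraries compared, with no control in it, also gained Psmd12, Psmd13 and Psmd14 under added TNFa. Some traits of Control replicate 1 recurred in the other libraries numbered 1. In IL4_IL13, number 1 held the lowest macrophage sum (7958 CPM), stromal sum (56.5) and Psmb10 level (80.4). In IL4_IL13_TNFa, number 1 held the lowest stromal sum (59.3) and Psmb10 level (215), but not the lowest macrophage sum (8620).

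RNA of genes whose proteins work with the particle was also measured. Of 19 measured partners, 10 were higher and 1 lower in IL4_IL13 (median 0.26; all genes 29.3% and 29.7%), and 12 were higher and 3 lower with TNFa (median 0.27; all genes 30.3% and 29.3%). Pomp, the maturation factor of the core, went from 74.7, 78.4 and 102 through 101, 112 and 117 to 157, 161 and 165 CPM (0.55 ± 0.06, adjusted p = 5.39e-07 for TNFa). The ubiquitin receptor Adrm1 rose with TNFa (0.36 ± 0.07, adjusted p = 0.000119), and the small cap subunit Sem1, whose symbol lies outside the naming rule, rose in the first step only (0.32, then -0.01, adjusted p = 0.91). Usp14, the deubiquitinase of the cap, had the largest first step (0.69 ± 0.16, adjusted p = 0.0012), and Zfand5 the next called (0.47). Ecpas, a proteasome adaptor, led under TNFa (0.68 ± 0.06, adjusted p = 9.78e-09). Ddi2, the protease that activates Nfe2l1, fell at both steps, from 231, 287 and 295 through 166, 202 and 208 to 144, 155 and 168 CPM (-0.500 and -0.33), and Zfand2a, an arsenite-inducible regulator of the particle, fell with TNFa (-0.30).

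Among regulators of the constitutive genes, 1 of 6 was higher and 2 lower in IL4_IL13 (all genes 29.3% and 29.7%), and 4 were higher with none lower with TNFa (median 0.59; all genes 30.3% and 29.3%). Nfe2l1, the factor that restores proteasome genes after inhibition, rose from 181, 192 and 219 through 214, 223 and 234 to 288, 308 and 319 CPM (0.20 and 0.46). Nfe2l2, the oxidative stress factor, was not called in the first step (-0.18 ± 0.08, adjusted p = 0.0641) but was called lower with the replicate block (-0.18, adjusted p = 0.0163), with library totals and without Control replicate 1 or IL4_IL13 replicate 5. It rose 2.99-fold with TNFa, from 212, 249 and 287 to 714, 751 and 774 CPM (1.58 ± 0.08, adjusted p = 8.03e-12). Their small Maf partner Maff went from 1.900, 2.17 and 2.55 to 15.3, 17.8 and 19.5 CPM (3.01 ± 0.26), whereas Mafg fell and then rose (-0.35 and 0.72), and Mafk fell in the first step (-0.25) and was not called in the second (0.10).

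Most regulators of the inducible genes were lower in IL4_IL13 than in Control, and most were higher with TNFa than without it. In IL4_IL13, 8 of 11 were lower and 2 higher (median -0.71), against 29.7% and 29.3% of all genes tested. With TNFa 9 were higher and none lower (median 0.61), against 30.3% and 29.3% of all genes. Irf2, however, was called lower with TNFa under the replicate block (-0.24, adjusted p = 0.0149), by DESeq2 (-0.25, adjusted p = 0.0487) and with library totals. Irf2 was also called lower with only the libraries compared and without Control replicate 1 or IL4_IL13 replicate 1. Nlrc5, the transactivator of class I genes, dropped from 53.3, 63.5 and 80.4 to 29.4, 40.2 and 44.4 CPM in the first step and stood at 51.7, 68.7 and 81.3 with TNFa (-0.71, then 0.77). Irf1 was not called in the first step (0.00) and rose with TNFa (0.61 ± 0.15, adjusted p = 0.0024). The largest fall of the first step was in Irf9 (-1.09), followed by Relb (-1.06), and the 2 called rises were Irf2 (0.47) and Nfkb1 (0.23). Under TNFa the NF-kB genes Relb (11.4, 23.6 and 27.5 against 149.8, 162 and 167 CPM, 2.86 ± 0.20) and Nfkb2 (2.23 ± 0.14) rose most, and against Control Irf8 (-0.79) and Irf9 (-0.65) were lower. The interferon genes Ifng and Ifnb1 were almost absent at 24 h: Ifng had 1 read in all 18 libraries and Ifnb1 had 2, both in Control. Other interferon genes are not reported here, no earlier time was sampled, and the part of interferon was not tested.

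**Figure D5:**
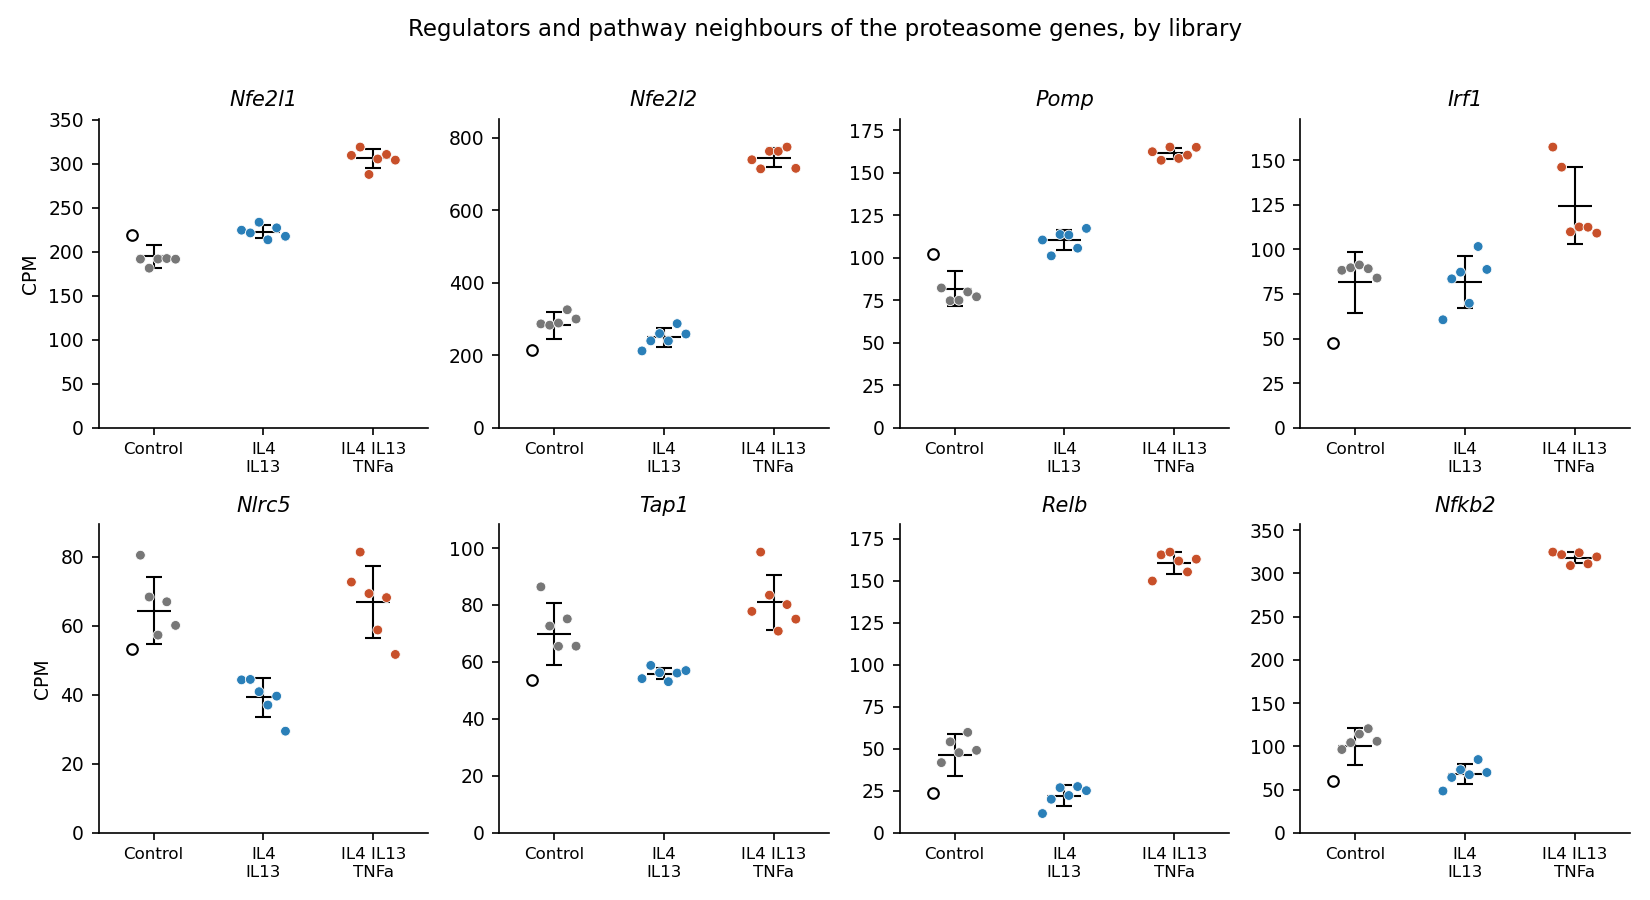
Levels in CPM of regulators and pathway neighbours (Nfe2l1, Nfe2l2, Pomp, Irf1, Nlrc5, Tap1, Relb and Nfkb2) in the 6 libraries of each group (points; bar and whiskers, mean and SD; open circle, Control replicate 1). Nlrc5, Tap1, Relb and Nfkb2 have lower means in IL4_IL13 than in Control and rise with TNFa, whereas Nfe2l2 overlaps in the first 2 groups and then rises to a mean of 745 CPM.

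Genes of the class I peptide pathway, which uses proteasome products, mostly rose under TNFa, where 10 of 11 genes were higher and none lower (median 0.73, against 1.03 for the 5 inducible members and 0.33 for the other 44). Among all genes tested, 30.3% were higher and 29.3% lower with TNFa. In IL4_IL13, 3 were higher and 3 lower (median -0.12), near the shares of 29.3% and 29.7% among all genes: the chaperones Calr (0.87) and Pdia3 (0.65) rose, and the transporter genes Tap1 (53.8, 69.1 and 86.4 against 53.1, 56.2 and 58.8 CPM, -0.32 ± 0.09) and Tap2 (-0.30) fell. The other fall, in Tapbp (-0.24), lost its call without Control replicate 2 or 5 or IL4_IL13 replicate 1 or 4, and H2-K1 was called lower with the replicate block (-0.24, adjusted p = 0.0073) and without Control replicate 1 (-0.34, adjusted p = 0.00135). Tapbp, which bridges the transporter and class I molecules, rose most with TNFa (1.43 ± 0.09, adjusted p = 9.33e-11), followed by the heavy chain gene H2-K1 (1.23). Of 8 ubiquitin and activating enzyme genes, 3 were higher and 3 lower in the first step and 7 higher with TNFa; the first counts lie near the shares among all genes (29.3% and 29.7%), and the last is set against 30.3%. The ribosomal fusion gene Rps27a rose in the first step (0.34), while the ubiquitin-like Isg15 fell from 10.6, 12.7 and 23.4 to 1.87, 2.72 and 3.44 CPM in IL4_IL13 (-2.43 ± 0.24) with its enzyme Uba7 (-1.16), and rose again with TNFa (1.84 ± 0.24).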

How the data were processed

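RNA from 18 libraries was counted per gene by the authors, and the deposited table holds raw read counts, whole numbers that were not normalized. Tools in the submitters' processing notes, on GRCm38 (mm10), are STAR (2.5.2, 2.5.2b), RSEM (1.3.0), featureCounts (1.5.1), FastQC (0.11.5) and bcl2fastq (2.20.0.422); libraries were stranded per the labels' protocols. As for annotation and strand setting, these were not given in the sources used here; genes with overlapping exons are uncertain, and reads of near-identical relatives may be split.

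Gene IDs were matched to GENCODE M21, of the same build: 48434 of 48794 rows had a symbol and 360 had none. Groups came from the titles. Rows were filtered with filterByExpr of edgeR 4.0.16 (minimum count 10), scaled by TMM and fitted with all 18 libraries in a robust quasi-likelihood model in R 4.3.3; p-values were adjusted over 13177 genes by Benjamini and Hochberg, with a threshold of 0.05. Standard errors are approximate: the fitted change divided by the root of F. TPM used the principal transcript's length. Within-library ratios were compared by exact permutation in Python 3.11.15. The scripts were tested on simulated counts. Within groups, no library was a copy of another (lowest chi-square per degree of freedom 2.72 over 45 pairs).

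Replicate numbers were checked for pairing: after subtracting group means, libraries of like number correlated in all 18 pairs (0.128 to 0.671). In 16 of them the first library's best match in the second group was the one of like number. Best matches in the other direction were not sought. The data thus mostly pair libraries of like number, though the labels give no reason. Alternatives were DESeq2 1.42.0 and its size factors, library totals, no filter, a stricter filter (CPM of 5 in 6 libraries), limma 3.58.1 voom, fits of only the libraries compared, a replicate block, each library left out, and the 3 libraries numbered 1 left out; the union exon length was added after seeing the data.

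The members, gene lists, motifs and tests were chosen with earlier results of these data known. Named were the 5 inducible members, their counterparts, the other activators, the inhibitor, members below the filter, in each other role and comparison the called member with the largest rise and fall, in each list and comparison up to 2 called rises and 2 falls, and 11 partners and regulators always. Psma1, Psmb1, Psmc1, Psmd4, Psmd8, Psmd9, Psmd11, Psmd12, Psmd13 and Psmg3 and the genes overlapping a member were named after their values were seen. Some genes that this rule names are not reported here. Protein sequences were not used here.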

Additional observations from a re-analysis of the deposited data

Results flagged for a closer look

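Within groups of 6 libraries, 25 of 102 sets of values held a library whose gap to its nearest neighbour, as a share of the range, exceeded Dixon's critical value. Chance flags about 1 in 20 of independent sets. These sets are not independent, since they share libraries, and the ratios and the share reuse the same genes, so 1 library can flag many. Control replicate 1 accounted for 21 of the 25. In CPM it stood high for Psma4 (71.3), Psma5 (29.1), Psmb3 (42.2), Psmb4 (103.5), Psmb5 (53.0), Psmb6 (81.6), Psmb7 (86.3), Psmc3ip (7.78), Psmc4 (92.7), Psmc5 (90.1), Psmd1 (164), Psmd2 (335), Psmd7 (94.4), Psmd14 (64.6), Psme3 (118), Psmg1 (12.1) and Psmg2 (18.8). It stood low for Psmb10 (43.2, others from 56.5). Its log2 ratios of Psmb9 to Psmb6 (-1.47) and of Psmb10 to Psmb7 (-0.999), and the immunoproteasome share of the protease subunits (32.5%), also lay apart. The other 4 were Psma4 and Psme2 in IL4_IL13 replicate 6 (123 and 53.6 CPM), and Psmb8 (208 CPM, high) and Psmb3 (46.7 CPM, low) in IL4_IL13_TNFa replicate 2. What sets Control replicate 1 apart was not tested.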

How the results depend on the processing

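Directions and calls of the members held under most alternatives, and library totals were the main exception. With library totals, the members higher under added TNFa fell from 39 to 18, and those outside the inducible set from 34 to 13, and log2 fold changes of called members turned for Psma1 (-0.054), Psmb1 (-0.053), Psmc1 (-0.024), Psmd4 (-0.0028), Psmd8 (-0.0044) and Psme4 (-0.0082) under added TNFa and for Psmb9 (-0.0089), Psmd9 (-0.059) and Psme4 (-0.015) under the 3 cytokines against Control. Outside the members, Mafk (-0.11) turned under added TNFa and Tap1 (-0.037) against Control. In IL4_IL13 against Control the inducible members called higher went from 3 to 1 with library totals and the stricter filter (1 to 4 over fits leaving out 1 library each), and inducible members called lower from 0 to 1 and all members lower from 1 to 2 with library totals, the stricter filter, the replicate block and without the 3 libraries numbered 1 (0 to 1 and 1 to 2 over fits without 1 library), the gene gained being Psmb9. Members lower under added TNFa, all outside the inducible set, went from 2 to 0 with no filter and to 1 with the stricter filter (0 to 2 without 1 library). The replicate block lost no member call and gained Psmb9, Psmd4 and Psmc3ip in IL4_IL13 against Control and Psmd12, Psmd13 and Psmd14 under added TNFa. With the block as an exact sign-flip test, the Psmb8/Psmb5 ratio was called under added TNFa (0.12) and no longer against Control (-0.34); Psmb9/Psmb6 under added TNFa was called at -0.24 without IL4_IL13_TNFa replicate 3, and ran from -0.24 to -0.15 over fits without 1 library. Immunoproteasome shares in Control, IL4_IL13 and IL4_IL13_TNFa were 52.3%, 48.2% and 56.1% from raw counts, and 40.3% in IL4_IL13 and 47.5% with TNFa by union exon length. The cause of these shifts was not tested. Depth limits Psma8, Psmb11 and Psmc3ip; RNA levels give no measure of assembled proteasomes.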
